A study of Mus musculus with 12 samples.

Results

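miR-26a and miR-26b are the guide strands of a small miRNA family, and each was read by 1 TaqMan assay on card A of the rodent miRNA array. They are 2 of the 593 assays of the deposited table, which gives numbers in place of names; 269 assays, these included, were named by matching their CT values to the lists printed with the study. The table holds 12 samples of bone marrow cells of C57BL/6 mice, covering 4 stages (LSK cells, promyelocytes, myelocytes and granulocytes) and, within each, RNA of the whole cell, the cytoplasm and the nucleus, with 1 sample per stage and fraction. LSK cells are sorted marrow cells that lack lineage markers and carry Sca1 and cKit, and therefore hold progenitors as well as stem cells; the other stages follow in order of maturation and were also sorted by flow cytometry. No treatment or genetic change was applied, and the number of mice behind a sample is not given in the sources used here. Each well gave a CT, the PCR cycle where fluorescence passes a set threshold, so that template increases as CT decreases, by 2-fold per cycle at full efficiency. With 1 sample per group no test between stages was possible, and no difference has a replicate check; 2-fold is used below as a limit of size.

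A mature miRNA guides the silencing complex to messenger RNAs that pair with its seed, bases 2 to 8 from its 5′ end, and members of a family that share a seed share many targets. The miR-26 family is widely expressed and is known for repressing Ezh2, the histone methyltransferase of the Polycomb repressive complex, and several cell cycle genes. Its hairpins lie inside genes of the CTDSP family, which encode small phosphatases of the RNA polymerase II tail and of other proteins. In hemopoiesis the family is less studied than miR-223, the miRNA best known for neutrophil maturation.

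The mature sequences are shown because they set how far the 2 assays can be told apart. Capitals mark the seed, and the sequences are those of RefSeq for GRCm38.p6.
miR-26a-5p: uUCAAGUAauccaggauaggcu
miR-26b-5p: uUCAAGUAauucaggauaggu
The seed UCAAGUA is the same in both, and among 1679 mature mouse miRNA names in the RefSeq table these 2 alone carry it. Over the first 21 bases 19 are identical (90.5%). Counted from the 5′ end, with the base of miR-26a first, the differences are C11U and C21U, and miR-26a has 1 further base at its 3′ end. Reading of 1 miRNA by the assay of the other was not tested in these data.

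RefSeq places miR-26a in 2 hairpins and miR-26b in 1, printed here with the guide strand in capitals to show that the products of the miR-26a genes are identical and are read together by 1 assay.
Mir26a-1, chr9:119031796-119031885, plus strand: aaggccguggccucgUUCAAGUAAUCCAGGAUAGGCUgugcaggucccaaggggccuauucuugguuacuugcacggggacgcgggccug
Mir26a-2, chr10:126995530-126995613, plus strand: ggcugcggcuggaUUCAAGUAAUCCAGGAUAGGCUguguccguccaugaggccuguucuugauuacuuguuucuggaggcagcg
Mir26b, chr1:74394310-74394394, plus strand: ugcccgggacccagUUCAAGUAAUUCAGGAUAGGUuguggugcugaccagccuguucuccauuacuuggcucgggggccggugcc
In the same annotation Mir26a-1 lies within Ctdspl, Mir26a-2 within Ctdsp2 and Mir26b within Ctdsp1. The opposite arm of the miR-26b hairpin, miR-26b-3p (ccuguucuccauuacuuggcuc), was read on card B under its older name miR-26b*.

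The labels of the stages were set beside miRNAs known to mark them. The granulocyte markers miR-223, miR-142-3p and miR-142-5p all had their highest whole cell CT in LSK cells and their lowest in granulocytes; miR-223 went from 24.0 to 16.4. Of 4 stem and progenitor markers, miR-125b-5p and miR-126-3p were named, and both had their lowest CT in LSK cells (28.9 and 24.3). Of 3 markers of other cells, only the lymphoid miR-150 was named, and it was read in every sample. Its whole cell CT was 25.1, 28.8, 25.6 and 25.8 from LSK cells to granulocytes in order of maturation, so its promyelocyte sample was the lowest in template, as it was for cytoplasmic (29.6) and nuclear (32.4) RNA. The paper lists miR-150 among miRNAs that rose while Myb fell in granulopoiesis, so its CT is not a measure of lymphoid cells alone. The part of lymphoid cells in the miR-26 values was not tested. Between 259 and 288 assays had a CT under 40 in whole cell RNA, 263 to 294 in cytoplasmic and 199 to 229 in nuclear RNA, where 40 is the value given to an undetermined well.

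Both miR-26 assays gave a CT far below 40 in all 12 samples. Whole cell miR-26a had a CT of 24.9 in LSK cells and 25.2 in promyelocytes, and of 23.3 in myelocytes and 22.5 in granulocytes. The CT of whole cell miR-26b was 26.3, 26.1, 23.7 and 22.9 in the same order. The early stages lay close together, the late stages lay close together, and for both miRNAs the step between them was that from promyelocytes to myelocytes. In sorted bulk samples of equal RNA input, fewer cells with a miRNA and less of it per cell cannot be told apart. Among named assays detected in a sample (CT under 40), miR-26a had the 19th lowest CT of 201 in LSK cells and the 12th lowest of 220 in granulocytes; miR-26b moved from the 31st to the 15th place.

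**Figure D1:**
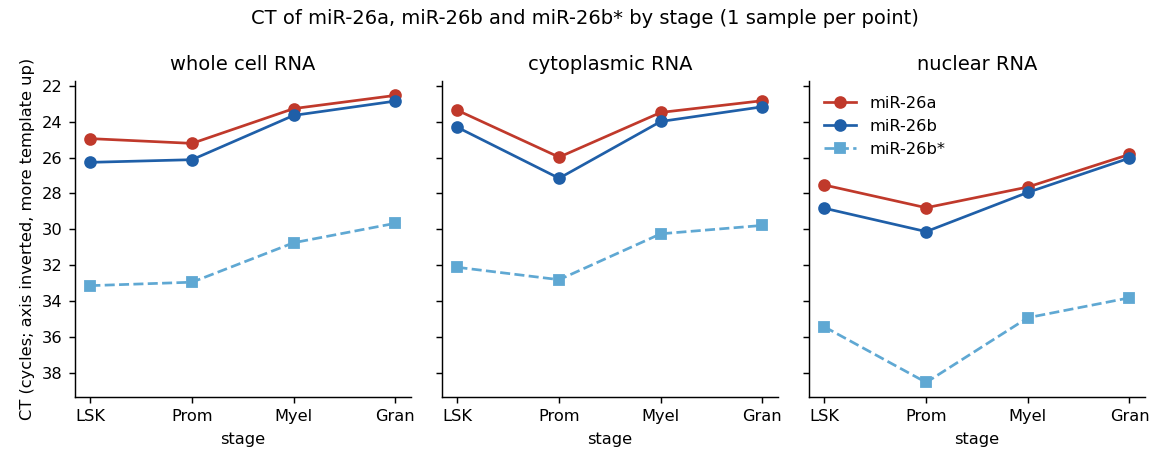
CT of miR-26a, miR-26b and miR-26b* (y axis, in cycles, inverted so that more template is higher) in the 4 stages (x axis; Prom, Myel and Gran are promyelocytes, myelocytes and granulocytes) for whole cell, cytoplasmic and nuclear RNA, 1 sample per point. From promyelocytes to granulocytes every line goes up in every fraction, and miR-26a lies above miR-26b in all 12 samples.

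Whole cell changes between stages are given on the log2 scale after subtracting, in each sample, the mean of the 3 assays that close card B. From promyelocytes to myelocytes miR-26a was higher by 1.95 (3.86-fold) and miR-26b by 2.48 (5.58-fold). Of 112 named assays that had a CT under 30 in either sample, 42% were higher by 2-fold or more in this step, and the median change was 0.75. miR-26b had the 13th largest rise and miR-26a the 24th of the 112. A 2-fold rise was thus common among the assays in this step, and both members lay above the median rise. In the opposite direction 12.5% were lower by 2-fold or more. Scaled by the mean CT of named assays, the members were higher by 1.43 and 1.96, the median was 0.23, and 29.5% of assays were higher and 25.9% lower by 2-fold or more.

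The steps on either side were small. From LSK cells to promyelocytes the log2 change was -0.51 for miR-26a and -0.10 for miR-26b, against a median of 0.43 over 104 assays, of which 33.7% were higher and 17.3% lower by 2-fold or more. Without scaling the change of miR-26b in this step was 0.15, so its direction depends on the scaling. From myelocytes to granulocytes the changes were 0.30 and 0.36, against a median of 0.07 over 120 assays (10.8% higher and 6.67% lower by 2-fold or more). Unscaled they were 0.74 and 0.80, against a median of 0.51 (28.3% higher and 4.17% lower). The scaled order of levels was granulocytes, myelocytes, LSK cells, promyelocytes for both miRNAs, and neither pair of neighbours at the ends of this order differed by 2-fold.

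Over the whole path from promyelocytes to granulocytes miR-26a was higher by 2.25 (4.75-fold) and miR-26b by 2.84 (7.15-fold), where 52.8% of 123 assays were higher by 2-fold or more and the median was 1.06. Against LSK cells the granulocyte sample was higher by 1.73 for miR-26a and 2.74 for miR-26b, where 55.6% of 124 assays were higher by 2-fold or more and the median was 1.31. Of the 124 assays, 51 rose more than miR-26a and 30 more than miR-26b, and 16.1% were lower by 2-fold or more. Unscaled, the changes were 2.41 and 3.41, where 68.5% of assays were higher and 9.68% lower by 2-fold or more. With the mean CT of the named assays under 30 as the scaling, the change of miR-26a between LSK cells and granulocytes was 0.90, under 2-fold, and that of miR-26b was 1.903, where 41.1% of assays were higher and 25% lower by 2-fold or more and the median was 0.47. From LSK cells to myelocytes, where 51.3% of 113 assays were higher by 2-fold or more, the changes were 1.44 and 2.38, and 15% were lower by as much. Scaled by the mean CT of named assays they were 0.59, under 2-fold, and 1.53, where 32.7% of assays were higher and 23.0% lower by 2-fold or more and the median was 0.25.

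In cytoplasmic RNA the promyelocyte sample stood out. Cytoplasmic miR-26a had a CT of 23.4 in LSK cells, 25.98 in promyelocytes, 23.5 in myelocytes, and 22.8 in granulocytes. Cytoplasmic miR-26b had a CT of 24.3, 27.2, 24.0 and 23.2. Thus both were lowest in template in promyelocytes, and LSK cells and myelocytes differed by 0.12 cycles for miR-26a and 0.33 for miR-26b, in opposite directions. The labels give 100 ng of RNA for every sample, while the paper describes its fraction CT values as based on cell equivalent volumes. Which of these set the input was not settled here. Unscaled, miR-26a was lower by 2.61 and miR-26b by 2.84 cycles in promyelocytes than in LSK cells. Scaled by the 3 assays that close card B, these differences were -0.76 and -0.99, under 2-fold, and by the mean CT of named assays -1.44 and -1.67. Unscaled, 64% of 111 assays were lower by 2-fold or more and 8.11% higher, with a median change of -1.26. The median was 0.59 with the assays that close card B, where 16.2% were lower, and -0.09 with the mean CT of named assays, where 27.9% were lower. From LSK cells to myelocytes, where both members differed by under 2-fold, 30.1% of 123 assays were higher and 33.3% lower by 2-fold or more. Against LSK cells the granulocyte sample was higher by 0.54 for miR-26a and by 1.14 (2.21-fold) for miR-26b, where 33.9% of 124 assays were higher and 34.7% lower by 2-fold or more; with the assays that close card B as the scaling these changes were -0.88 and -0.27, where 11.3% were higher and 58.9% lower and the median was -1.64.

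From promyelocytes to myelocytes cytoplasmic miR-26a was then higher by 2.49 and miR-26b by 3.16 on the log2 scale, where 54.5% of 110 assays were higher and 8.18% lower by 2-fold or more and the median was 1.18. The ranks in this step were the 24th and the 13th largest rise of 110. Scaled by the assays that close card B, the rise of miR-26a was 0.82, under 2-fold, and that of miR-26b was 1.49, where 17.3% of assays were higher and 37.3% lower by 2-fold or more and the median was -0.50. By the mean CT of named assays they were 1.44 and 2.11, where 32.7% were higher and 24.5% lower and the median was 0.12. From promyelocytes to granulocytes they were higher by 3.15 (8.85-fold) and 3.98 (15.8-fold), where 58.2% of 110 assays were higher and 10.9% lower by 2-fold or more. However, with the 3 assays that close card B as the scaling, the change of miR-26a was -0.12 and that of miR-26b 0.72. The median change of all assays in this comparison went from 1.31 without scaling to -1.96 with those 3 assays, where 8.18% were higher and 67.3% lower by 2-fold or more. A scaling shifts all assays of a sample alike, so the ranks of the members do not depend on it. With the mean CT of the named assays as the scaling the changes were 2.04 and 2.88, where 36.4% were higher and 27.3% lower and the median was 0.20. From myelocytes to granulocytes the changes were 0.65 and 0.82, under 2-fold, where 11% of 109 assays were higher and 11% lower by 2-fold or more. Scaled by the assays that close card B they were -0.94 and -0.77, the opposite direction, where 76.1% were lower by 2-fold or more.

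The paper proposes that the low nuclear signal of most miRNAs came mainly from cytoplasmic RNA left in the nuclear fraction. The part of such carry-over in the nuclear values of miR-26 was not tested. Nuclear miR-26a had a CT of 27.5 in LSK cells, 28.8 in promyelocytes, 27.6 in myelocytes, and 25.8 in granulocytes. Nuclear miR-26b had a CT of 28.8, 30.1, 27.9 and 26.03. The promyelocyte sample was again the lowest in template and the granulocyte sample the highest, and miR-26b passed a CT of 30 in promyelocytes only. In nuclear comparisons with promyelocytes miR-26b thus met the CT limit only through the other stage, so its ranks there are not free of that limit. Promyelocytes were lower than LSK cells by 1.26 for miR-26a and 1.30 for miR-26b, where 29.4% of 51 assays were lower and 19.6% higher by 2-fold or more and the median was 0.20. From promyelocytes to myelocytes miR-26a was higher by 1.16 and miR-26b by 2.19, while the median of 47 assays was -0.52; 29.8% of them were higher and 31.9% lower by 2-fold or more, and only 3 rose more than miR-26b. Scaled by the assays that close card B, these 2 rises were 2.56 and 3.596, where 46.8% of assays were higher and 10.6% lower by 2-fold or more and the median was 0.89. From myelocytes to granulocytes the members were higher by 1.82 and 1.91, where 78.9% of 57 assays were higher and 1.75% lower by 2-fold or more and the median was 1.35, all as measured unscaled. With the mean CT of named assays as the scaling the members came to 0.65 and 0.75, the median to 0.18 and the share higher by 2-fold or more to 8.77%.

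Over the whole path from promyelocytes to granulocytes nuclear miR-26a was higher by 2.98 (7.87-fold) and miR-26b by 4.10 (17.1-fold), where 58.1% of 62 assays were higher and 11.3% lower by 2-fold or more and the median was 1.69. Only 4 of the 62 rose more than miR-26b, and 14 rose more than miR-26a. Here miR-26b met the CT limit only through the granulocyte sample, so its rank is not free of that limit. These rises were 1.89 and 3.01 when scaled by the mean CT of named assays, where 45.2% of assays were higher and 27.4% lower by 2-fold or more. They were 4.36 and 5.49 when scaled by the assays that close card B, where 83.9% were higher and 3.23% lower. From LSK cells to granulocytes the changes were 1.71 and 2.80, where 58.7% of 63 assays were higher and 14.3% lower by 2-fold or more; the median was 1.59, close to miR-26a. Scaled by the mean CT of named assays, these changes were 0.45, under 2-fold, and 1.53, where 34.9% of assays were higher and 23.8% lower by 2-fold or more. By the assays that close card B they were 2.86 and 3.95, where 81.0% were higher and 7.94% lower. From LSK cells to myelocytes they were -0.11 and 0.89, both under 2-fold, where 22% of 50 assays were higher and 26% lower by 2-fold or more. Scaled by the assays that close card B they were 1.06 and 2.06, both past 2-fold, where 50% of assays were higher and 20% lower and the median was 1.03. The direction of miR-26a here thus depends on the scaling.

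**Figure D2:**
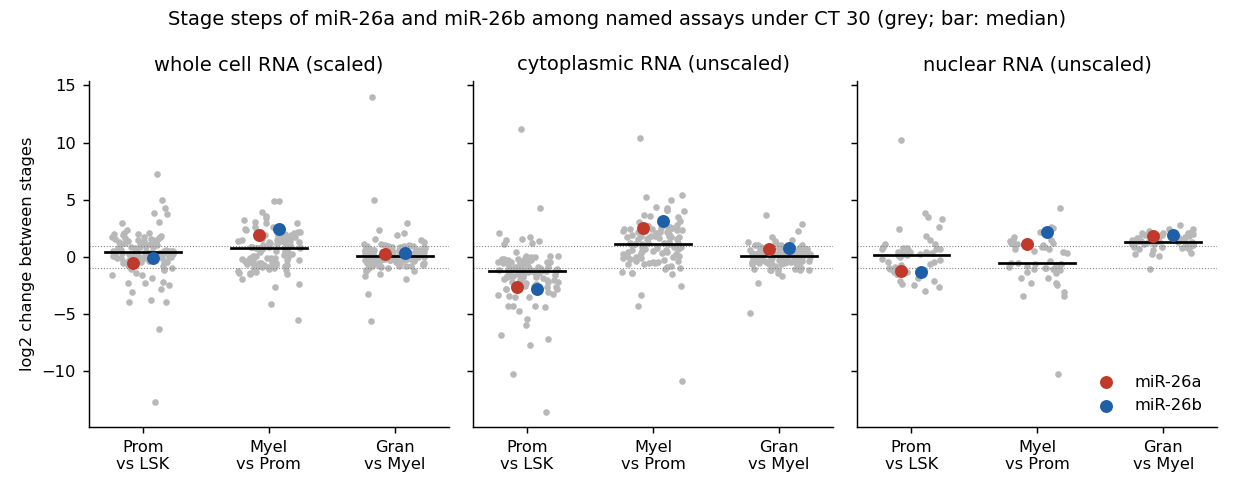
Log2 change between successive stages (y axis) of miR-26a (red), miR-26b (blue) and the other named assays with a CT under 30 in either sample (grey; the bar is their median; dotted lines mark 2-fold), for each step and fraction. In the step from promyelocytes to myelocytes both members lie above 2-fold and above the median in all 3 fractions as scaled in the plot; scaled by the assays that close card B, cytoplasmic miR-26a came to 0.82, under 2-fold.

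The gap between the 2 assays within a sample needs no scaling, since both were read on the same card from the same RNA. The CT of miR-26b minus that of miR-26a in whole cell RNA was 1.32 and 0.91 cycles in LSK cells and promyelocytes, and 0.38 and 0.32 cycles in myelocytes and granulocytes. In cytoplasmic RNA it was 0.95, 1.18, 0.50 and 0.34, and in nuclear RNA 1.29, 1.33, 0.30 and 0.21. The gap was between 0.91 and 1.33 in the 6 samples of LSK cells and promyelocytes, and between 0.21 and 0.50 in the 6 samples of myelocytes and granulocytes, so the early and late samples did not overlap. This split of the stages was made after the values were seen, and samples of 1 stage come from fractions of the same cell type. How many other pairs of assays split in the same way was not counted, so the split is not shown to be particular to this pair. The size of the gap depends on the primers of each assay and says nothing of which miRNA was more abundant. Its change between samples is read as the difference in their response. This holds only if both assays amplify alike and neither reads the other miRNA, which was not tested.

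From promyelocytes to myelocytes the gap narrowed by 0.53 cycles in whole cell, 0.67 in cytoplasmic and 1.03 in nuclear RNA, that is, miR-26b rose more than miR-26a by 1.44-fold, 1.59-fold and 2.04-fold. From myelocytes to granulocytes it narrowed by 0.06, 0.16 and 0.09 cycles. Between LSK cells and promyelocytes it narrowed by 0.41 cycles in whole cell RNA but widened in cytoplasmic RNA, where the narrowing was -0.23, and in nuclear RNA it was -0.04. The level moved with the gap in part: in each fraction granulocytes had the lowest miR-26a CT (22.5, 22.8 and 25.8) and the smallest gap. At nearly equal miR-26a CT in nuclear RNA, 27.5 in LSK cells and 27.6 in myelocytes, the gaps were 1.29 and 0.30, and at 23.4 and 23.5 in cytoplasmic RNA of the same stages they were 0.95 and 0.50. The efficiency of the assays was not measured, and the part of the level in the gap was not tested.

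**Figure D3:**
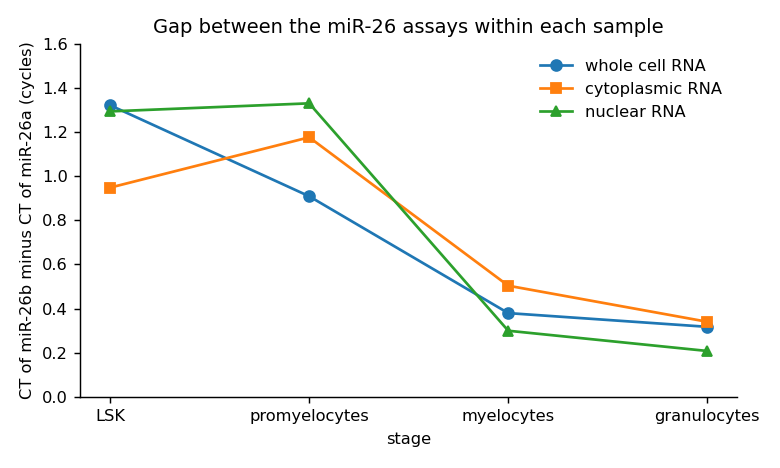
CT of miR-26b minus CT of miR-26a within each of the 12 samples (y axis, in cycles) by stage (x axis), with 1 line per RNA fraction. The samples of LSK cells and promyelocytes lie between 0.91 and 1.33, and those of myelocytes and granulocytes between 0.21 and 0.50.

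miR-26b*, the arm opposite miR-26b in its hairpin, is usually the less abundant strand and was read late, with a CT of 33.1, 32.9, 30.7 and 29.7 in whole cell RNA from LSK cells to granulocytes. It was under a CT of 30 only in whole cell and cytoplasmic granulocytes. Its whole cell log2 change from promyelocytes to granulocytes was 2.86, beside 2.84 for miR-26b. Across whole cell samples the CT of miR-26b* minus that of miR-26b was between 6.81 and 7.10 in all 4 stages, a smaller spread than the change of either arm. Across cytoplasmic and nuclear samples the same difference ranged from 5.65 to 8.41, at a CT of up to 38.5 for miR-26b*.

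The fractions of a stage were compared by the nuclear minus the cytoplasmic CT. For miR-26a it was 4.17 cycles in LSK cells and 4.16 in myelocytes, and 2.82 in promyelocytes and 2.99 in granulocytes. For miR-26b it was 4.51 and 3.95, and 2.97 and 2.86, in the same order. The medians over named assays under a CT of 30 in cytoplasmic RNA were 4.34 and 4.18, and 2.88 and 2.62, so both members followed the bulk of miRNAs from stage to stage. Both had more template in the cytoplasmic than in the nuclear sample in all 4 stages, at inputs whose basis was not settled here.

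A nuclear:cytoplasmic ratio was taken as 2 raised to the cytoplasmic minus the nuclear CT, divided by 3, a constant that the ratios tabulated with these data carry. By it miR-26a came to 0.0186, 0.0472, 0.0187 and 0.0420 from LSK cells to granulocytes. miR-26b came to 0.0146, 0.0424, 0.0215 and 0.0460. All 8 ratios were under 0.1, as were 84.4% of the 45 assays with a nuclear CT under 30 in LSK cells. The share was 72.5% of 40 in promyelocytes and 86.5% of 37 in myelocytes, and reached 89.5% of 57 in granulocytes. Relative to the median ratio of the stage the members lay between 0.69 and 0.88 of it. Without the divisor the ratios in promyelocytes and granulocytes were between 0.126 and 0.142 and thus over 0.1, as were 85% of the 40 assays in promyelocytes and 87.7% of the 57 in granulocytes.

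**Figure D4:**
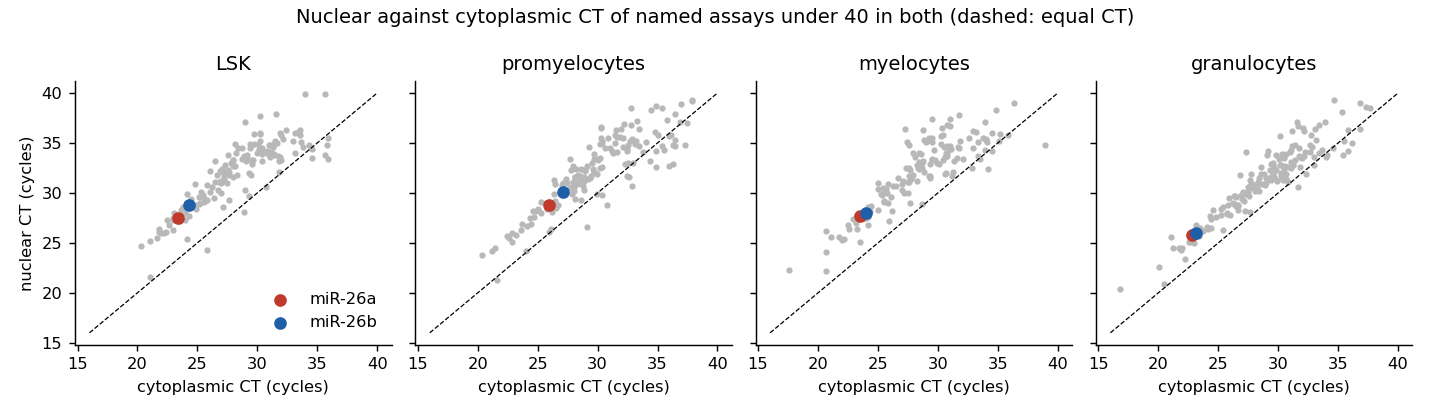
Nuclear CT (y axis, in cycles) against cytoplasmic CT (x axis, in cycles) of the named assays detected (CT under 40) in the nucleus as well as in the cytoplasm, 1 panel per stage, with miR-26a in red and miR-26b in blue; the dashed line marks equal CT. Both members lie above the line in each stage, within the cloud of the other assays.

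The whole cell and cytoplasmic samples of a stage did not keep a fixed distance. Whole cell minus cytoplasmic CT was 1.58 for miR-26a and 1.95 for miR-26b in LSK cells, where the median of 108 assays was 1.39. In promyelocytes it was -0.77 and -1.04, beside a median of -0.60. By these values the cytoplasmic LSK sample held more template than the whole cell sample, and the cytoplasmic promyelocyte sample less, for both members and for the median assay, though not for every assay. Beside these shifts, the members fell by 2.61 and 2.84 from LSK cells to promyelocytes in cytoplasmic RNA, while the scaled whole cell changes were -0.51 and -0.10; the part of the shifts in this was not tested.

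Profiles were compared by centring each assay on its own mean CT over the 12 samples and taking the root mean square of the differences, among 111 named assays with a CT under 40 in all samples. The profiles nearest to miR-26a were those of miR-322 (0.26 cycles), miR-30b (0.27), miR-30c (0.36), miR-140 (0.39) and miR-484 (0.39), where the median over 110 assays was 1.22. The profiles nearest to miR-26b were those of miR-26a (0.43), miR-322 (0.44), miR-30b (0.51), miR-140 (0.51) and miR-16 (0.56), with a median of 1.48. Over the 12 samples miR-26a was thus the nearest profile to miR-26b, while miR-26b was the 7th nearest to miR-26a. miR-322 and miR-16 belong to the miR-15/16 group of miRNAs and miR-30b and miR-30c to the miR-30 family. The distance takes in the drop from cytoplasmic to nuclear RNA, which nearly all assays share. On the whole cell samples alone, 2 of the 5 nearest to miR-26a and 1 of the 5 nearest to miR-26b were again among the 5. The profile kept for miR-26b was that of miR-16, and miR-26a was no longer among its 5 nearest.

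**Figure D5:**
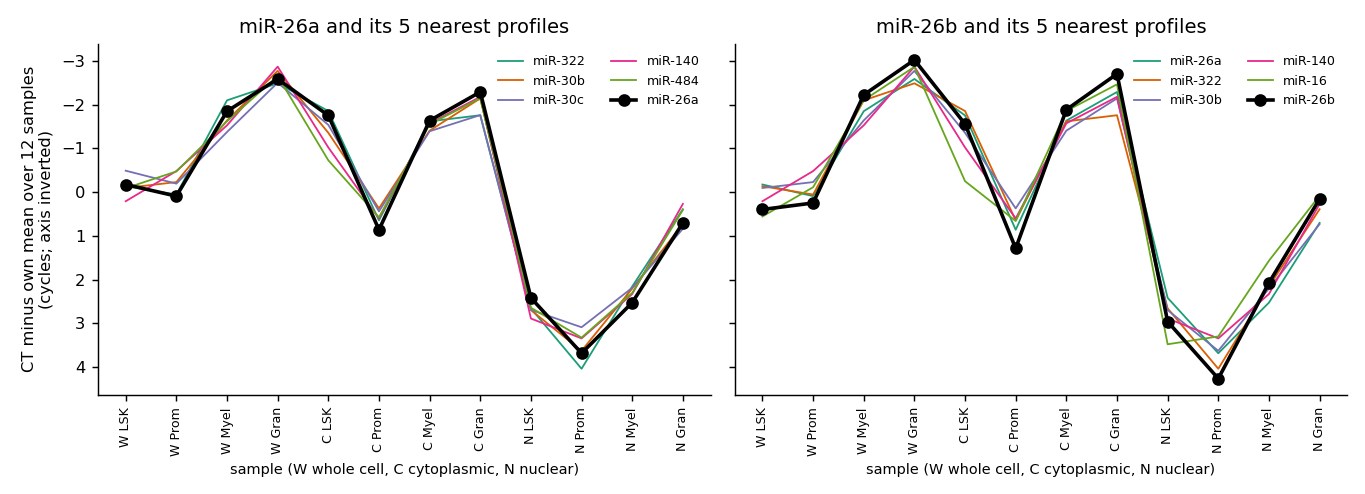
CT minus the assay's own mean over the 12 samples (y axis, in cycles, inverted) for miR-26a (left) and miR-26b (right) in black, each with its 5 nearest profiles in colour, over the 12 samples (x axis; W, C and N stand for whole cell, cytoplasmic and nuclear). Within cytoplasmic and nuclear RNA the lines are lowest in promyelocytes, except nuclear miR-16, and within each fraction they are highest in granulocytes, except cytoplasmic miR-322.

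Other families of broadly expressed miRNAs give the setting for whole cell RNA between promyelocytes and granulocytes, where 52.8% of assays were higher by 2-fold or more. All 5 guide strands of the miR-30 family were higher by 2-fold or more, with a median log2 change of 1.12 and a range from 1.06 for miR-30e to 2.11 for miR-30b, which is below both miR-26 members. Only 2 of the 5 passed 2-fold with the mean CT of named assays as the scaling, and the median was then 0.62, where 39.8% of all assays passed. Of 2 miR-29 assays under a CT of 30, miR-29c was higher by 1.97 and miR-29a by 0.91 (1.34 without scaling, past 2-fold). Of 6 named let-7 members, none was higher and 3 were lower by 2-fold or more, with a median of -1.02, where 21.1% of all assays were lower by 2-fold or more. Without scaling 0 let-7 members were lower and 1 higher, where 10.6% of all assays were lower, and with the mean CT of named assays 4 were lower, where 29.3% were. These are counts and medians of 1 pair of samples, and no test of a difference between families was possible.

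Of the other miRNAs known to repress Ezh2, miR-101a and miR-101b were named, and miR-138 and miR-214 were not. Both went the other way from miR-26: in whole cell granulocytes miR-101a was lower than in promyelocytes by 1.44 and miR-101b by 1.75 on the log2 scale, where 21.1% of 123 assays were lower by 2-fold or more. From promyelocytes to myelocytes the changes of miR-101a and miR-101b were -0.96 and -1.21. No mRNA was measured in this table, so levels of Ezh2 were not analysed here.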

How the data were processed

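Sorted cells were separated into nuclear and cytoplasmic fractions with the PARIS kit, and RNA of the fractions or of whole cells was extracted with Trizol. The labels give 100 ng of RNA for reverse transcription, which the authors ran with rodent Megaplex primers. TaqMan array cards A and B were run on an ABI 7900HT, and CT values were called with SDS 2.3 and RQ Manager. The CT values were deposited without normalization, with undetermined wells at 40. The table numbers its assays, so names were assigned where all 8 cytoplasmic and nuclear CT values matched an entry of the study's printed list of fraction CT values within 0.0005 (246 assays), and then where the whole cell differences, scaled and multiplied by 1.71, matched its list of changes within 0.002, for 269 assays in all, with 0 conflicts. The members, lists and rules were chosen with earlier results of these data known.

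Whole cell CT differences were scaled by the mean of the 3 assays that close card B, which gives the constants behind the study's list of changes; that list carries 1.71 units per cycle where 1 cycle is 1 log2 unit here, and the identity of these 3 assays is not given in the table. Fractions were not scaled. Background shares cover named assays under a CT of 30 in either sample, with a limit of 2-fold. Genes named were the members, the opposite hairpin arm, the 5 nearest profiles of each member, the fixed families and markers. Each assay has 1 deposited CT per sample, so its precision is unknown, and it falls as CT nears 40. The procedures were tested on simulated data. Python 3.11.15, numpy 2.4.6, pandas 2.3.3 and matplotlib 3.10.9 were used. Coordinates are those of RefSeq for GRCm38.p6, and the table itself names no build. The alternatives were other scalings, a fold per cycle of 1.9, fold limits of 1.5 and 3, CT limits of 28, 32 and 35, unnamed assays included, no divisor or the median ratio of the stage in place of 3, and other measures of profile distance. Other scalings of the family counts and background shares, and the share of ratios without the divisor, were added after values were seen.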

Additional observations from a re-analysis of the deposited data

Results flagged for a closer look

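From LSK cells to myelocytes miR-26a had changes of opposite sign in different RNA fractions as each was scaled here, and the difference was not tested, since each fraction has 1 sample per stage. Its log2 change was 1.44 in whole cell RNA, scaled by the assays that close card B, and -0.12 in cytoplasmic and -0.11 in nuclear RNA, both unscaled, so whole cell RNA exceeded cytoplasmic RNA by 1.56 and nuclear RNA by 1.55. The median change of the named assays moved with it, at 1.10 in whole cell, -0.28 in cytoplasmic and -0.14 in nuclear RNA. Scaled by the assays that close card B in every fraction, the changes were 1.44, 0.058 and 1.06, with no opposite sign, and unscaled in every fraction they were 1.67, -0.12 and -0.11. With the mean CT of the named assays as the scaling in each fraction, the 3 changes were 0.59, -0.0027 and -0.21.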

How the results depend on the processing

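No paired analysis was possible because the labels give no replicates to pair between stages: each stage and fraction has 1 sample. The fractions of a stage were set against each other as values, and no replicate could be left out. Whole cell changes were recomputed unscaled and scaled by the mean CT of named assays under 30. With the latter, miR-26a passed 2-fold in 2 of 6 pairs of stages in place of 4, with 0.59 for LSK cells to myelocytes and 0.90 for LSK cells to granulocytes. miR-26b passed in 4 of 6 pairs under each whole cell scaling, fold per cycle and fold limit tried.

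Cytoplasmic changes depended most on scaling. With the 3 assays that close card B as the scaling, miR-26a passed in 0 of 6 pairs in place of 3 and miR-26b in 1 in place of 4. For miR-26a the changes were then -0.76 from LSK cells to promyelocytes, 0.82 from promyelocytes to myelocytes, -0.94 from myelocytes to granulocytes, -0.12 from promyelocytes to granulocytes and -0.88 from LSK cells to granulocytes. For miR-26b the same comparisons gave -0.99, 1.49, -0.77, 0.72 and -0.27. With the mean CT of the named assays, LSK cells to promyelocytes, promyelocytes to myelocytes and promyelocytes to granulocytes gave -1.44, 1.44 and 2.04 for miR-26a and -1.67, 2.11 and 2.88 for miR-26b.

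Nuclear changes with the 3 assays that close card B were larger: promyelocytes to myelocytes, LSK cells to myelocytes, promyelocytes to granulocytes and LSK cells to granulocytes gave 2.56, 1.06, 4.36 and 2.86 for miR-26a and 3.596, 2.06, 5.49 and 3.95 for miR-26b. With the mean CT of the named assays, myelocytes to granulocytes, promyelocytes to granulocytes and LSK cells to granulocytes gave 0.65, 1.89 and 0.45 for miR-26a and 0.75, 3.01 and 1.53 for miR-26b, and miR-26a passed in 3 of 6 pairs in place of 5; a fold limit of 3 also left 3. The cause of these shifts was not tested.

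Without the divisor the nuclear:cytoplasmic ratio passed 0.1 for miR-26a in promyelocytes (0.142) and granulocytes (0.126) and for miR-26b in the same stages (0.127 and 0.138). Of the 5 nearest profiles, 2 for miR-26a and 1 for miR-26b (miR-16, and not miR-26a) were kept on whole cell samples alone, and 3 for each by the largest absolute difference. The gap between the assays is free of scaling, and a fold per cycle of 1.9 multiplies all gaps alike. Counts in the miR-30 and let-7 families between whole cell promyelocytes and granulocytes, recomputed after the data were seen, went from 5 higher to 2 for miR-30 with the mean CT of named assays, and from 3 lower to 0 for let-7 without scaling. Of 72 background shares recomputed with other CT limits or with unnamed assays, both directions together, 3 moved by over 1.5 times. Recomputed by direction under the other scalings, a choice made after the data were seen, 34 of 72 did.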
